A study of Mus musculus with 5 samples.

Results

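Expression of 10 genes of the blood-brain barrier endothelium was measured by RNA sequencing in brain of male C57BL/6 mice, an inbred laboratory strain, at an age of 30 months. The genes are Cldn5, Ocln, Tjp1, Pecam1, Cdh5, Flt1, Slco1c1, Abcb1a, Abcg2 and Mfsd2a, chosen by name as known components of the barrier. Earlier results of these data were known when they were chosen. All 10 were found among the 47729 genes of the deposited table. There are 5 samples in a single group with no treatment, other age, other sex or other tissue, so the design asks at what level the barrier genes were expressed at this age and how far the mice differed. The samples are called mice 7, 8, 9, 10 and 11 after the numbers in their labels; the labels do not state that each number is a separate animal, so the spread between them may in part be technical. Libraries held between 15392006 and 18723390 counts. Levels are given in RPKM (reads per kilobase of gene length per 1000000 counts), which allows genes to be compared with each other, and errors are SDs over the mice (n = 5).

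Brain capillaries are lined by endothelial cells that are sealed to each other by tight junctions, carry few vesicles and take up nutrients through carriers. Claudins and occludin span the membrane at the tight junction and bind to cytoplasmic scaffold proteins, while VE-cadherin holds the adherens junction together. Efflux pumps on the blood side return many drugs to the circulation, and uptake carriers supply hormones, fatty acids and sugar. In brain tissue these cells are a minority, and fewer endothelial cells cannot be told apart from less RNA per cell. Some of the 10 genes are also made by other cells, for example Tjp1 and Ocln by the epithelium of the choroid plexus.

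All 10 genes were detected in every library, with mean levels between 1.82 and 23.1 RPKM and mean counts between 225.6 and 2912.4. Tjp1 was highest at 23.1 ± 3.27 RPKM, followed by Cldn5 at 15.5 ± 8.42, Slco1c1 at 12.8 ± 1.93, Flt1 at 9.02 ± 0.921 and Mfsd2a at 8.93 ± 3.02 RPKM. Abcb1a had 5.54 ± 1.43 RPKM, Cdh5 4.56 ± 0.332, Pecam1 4.42 ± 0.457, Ocln 3.30 ± 0.537 and Abcg2 1.82 ± 0.577 RPKM. Ocln ranked 9 and Abcg2 ranked 10 in each of the 5 mice, and Tjp1 was first in 4 of them. In mouse 7 Ocln and Abcg2 were nearly equal, with a log2 ratio of 0.0088. Of the 9 pairs of neighbours in this order, 3 kept their order in every mouse, namely Slco1c1 over Flt1, Pecam1 over Ocln and Ocln over Abcg2. In a two-sided exact permutation test that flips the sign of each mouse, p cannot go below 0.0625, which these 3 pairs reached (adjusted p = 0.188 over 9 tests, n = 5). At the gene lengths used, Cldn5 and Slco1c1, Flt1 and Mfsd2a, and Cdh5 and Pecam1 did not differ beyond their spread. Their log2 ratios were 0.15 ± 0.90, 0.07 ± 0.50 and 0.05 ± 0.25. The order of Mfsd2a over Abcb1a held in 3 mice, and those of Tjp1 over Cldn5 and Abcb1a over Cdh5 in 4 mice each. After each library's trends of expression with GC content and gene length were removed, 3 pairs again kept their order in every mouse, but not the same 3: Tjp1 over Cldn5 then held in 5 mice and Pecam1 over Ocln in 4.

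**Figure D1:**
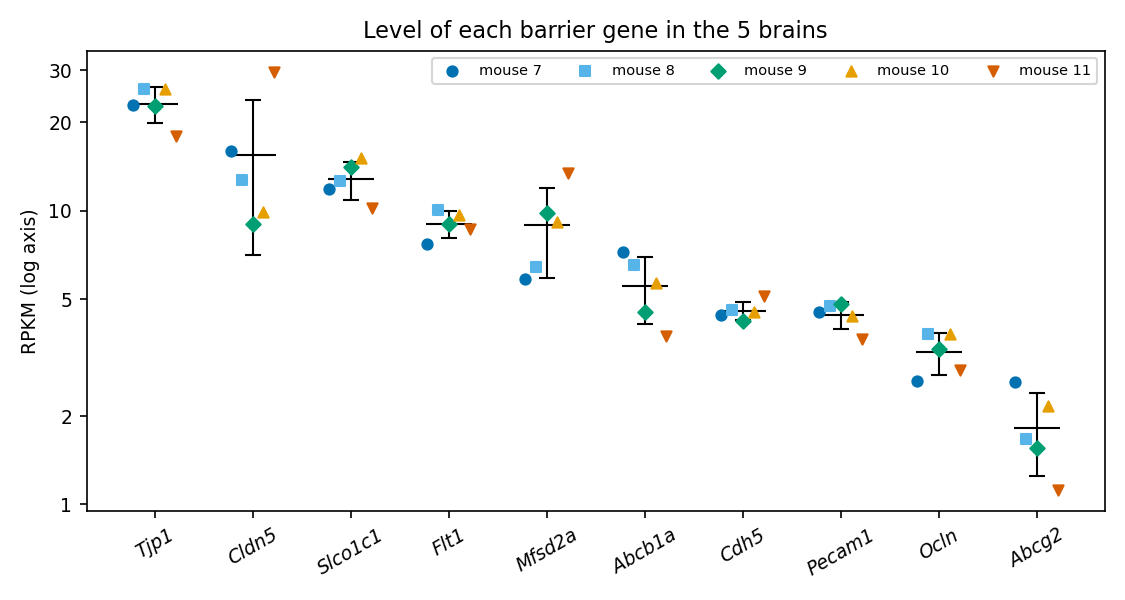
RPKM of each of the 10 barrier genes on a log axis, in order of the mean, with a symbol for each mouse and a bar for the mean ± SD (n = 5). Cldn5 ranged from 9.03 to 29.7 RPKM and Mfsd2a from 5.86 to 13.4, while Cdh5 stayed between 4.21 and 5.11 RPKM.

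The genes differ widely in base composition, and in mouse 11 this moved with their values (the values by GC content are given with the plot of deviations against GC). GC content of the longest transcript was 60.5% for Cldn5, 54.2% for Mfsd2a, 52.2% for Cdh5, 50.5% for Flt1, 50.2% for Pecam1, 46.8% for Tjp1, 45.2% for Abcb1a, 43.1% for Slco1c1, 42.0% for Ocln and 39.2% for Abcg2. The first 120 coding bases are shown for the 2 genes that were furthest above their mean in mouse 11 and the 2 that were furthest below it, a choice made after the values were seen. Sequences are from GENCODE M21 on GRCm38, read 5′ to 3′ on the coding strand from the start codon, with each G and C in capitals.
Cldn5: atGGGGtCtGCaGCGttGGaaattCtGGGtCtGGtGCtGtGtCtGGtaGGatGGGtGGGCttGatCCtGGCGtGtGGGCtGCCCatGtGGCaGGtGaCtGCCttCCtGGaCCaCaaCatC
Mfsd2a: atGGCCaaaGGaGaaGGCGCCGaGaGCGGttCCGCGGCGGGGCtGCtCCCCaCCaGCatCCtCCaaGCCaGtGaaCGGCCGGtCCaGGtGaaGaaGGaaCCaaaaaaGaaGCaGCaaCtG
Abcb1a: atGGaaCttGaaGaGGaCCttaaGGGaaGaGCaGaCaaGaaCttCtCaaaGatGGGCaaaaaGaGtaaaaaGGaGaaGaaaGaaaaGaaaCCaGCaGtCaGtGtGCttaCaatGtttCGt
Abcg2: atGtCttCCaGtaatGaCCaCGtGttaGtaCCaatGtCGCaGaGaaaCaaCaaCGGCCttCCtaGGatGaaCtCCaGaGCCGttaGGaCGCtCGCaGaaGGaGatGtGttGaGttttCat
In these stretches G and C made up 59.2% of the Cldn5 bases and 61.7% of those of Mfsd2a, against 40% in Abcb1a and 47.5% in Abcg2. Over the whole coding sequence the shares were 64.1%, 54.6%, 47.5% and 43.4% in the same order of genes.

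Of the tight junction members Cldn5, Ocln and Tjp1, Cldn5 differed most between the mice. The spread of Ocln depended on whether GC and length trends were removed. Cldn5 encodes claudin-5, the main claudin of brain endothelium, and lies on chromosome 16 from 18776847 to 18778262 on the plus strand of GRCm38. Its level was 15.96, 12.7, 9.03, 9.92 and 29.7 RPKM in mice 7 to 11, from 351, 276, 200, 225 and 787 counts. Mouse 11 was 3.29 times mouse 9 and stood above the others, although its gap to mouse 7 took 0.665 of the range and so stayed under the 0.71 that marks a value apart. The coefficient of variation was 54.5%, where counting alone gives about 5.21%. In edgeR's quasi-likelihood fit across the 16318 genes that averaged 10 counts or more, the dispersion of Cldn5 was 8.42 times the trend at its expression level, which 99.0% of genes did not reach, but it was not called variable (adjusted p = 0.981). Without a filter on low counts the adjusted p of Cldn5 in edgeR was 0.0418, and 0.812% of 28335 genes were then called.

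Ocln and Tjp1 had smaller coefficients of variation, 16.3% and 14.1%. Ocln, which encodes occludin and lies on chromosome 13 from 100496507 to 100552718 on the minus strand, had 2.64, 3.82, 3.39, 3.79 and 2.86 RPKM in mice 7 to 11. Its lowest values were in mice 7 and 11. Once the trends were removed, the SD of its log2 CPM was 0.37 in place of 0.23, near the 0.41 of Cldn5. Its deviation from the mean was then -0.63 in mouse 7, the furthest from 0 of any member in any mouse, and 0.31 in mouse 11, its highest, in place of -0.13. Tjp1 encodes ZO-1, the scaffold that ties claudins and occludin to actin, and lies on chromosome 7 from 65296165 to 65527781 on the minus strand. It had 22.9, 25.9, 22.8, 25.9 and 17.9 RPKM, so mouse 11 was lowest for the scaffold and highest for the claudin. In mouse 11 Cldn5 stood above Tjp1, and in the other 4 mice Tjp1 stood above Cldn5. With the trends removed Tjp1 stood above Cldn5 in mouse 11 too.

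Among the members, the adhesion genes Cdh5 and Pecam1 differed little between the mice. Cdh5 encodes VE-cadherin, on chromosome 8 from 104101625 to 104144511 on the plus strand, and had 4.42, 4.58, 4.21, 4.50 and 5.11 RPKM in mice 7 to 11. The coefficient of variation was 7.28%, the smallest of the 10 members, against 5.80% from counting alone. Pecam1 encodes the adhesion molecule CD31, on chromosome 11 from 106654217 to 106750628 on the minus strand, and had 4.51, 4.75, 4.80, 4.37 and 3.66 RPKM. Its coefficient of variation was 10.3%, and that of Flt1 10.2%. Mouse 11 was highest for Cdh5 and lowest for Pecam1. Pecam1 is also made by platelets and leukocytes, whose part in its level was not tested. The platelet genes Pf4 and Itga2b had 1.03 ± 0.330 and 0.367 ± 0.108 RPKM, and the leukocyte gene Ptprc 0.383 ± 0.193. In log2 CPM (counts per 1000000) the SDs of Cdh5 and Pecam1 were 0.13 each, and 9.14% and 9.06% of the tested genes had a smaller one. That ranking was not matched for counts. Relative to the trend at their expression level, 10.2% and 10.9% of the tested genes had a smaller dispersion in edgeR.

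Flt1 encodes VEGF receptor 1, which binds VEGF-A and signals weakly, and lies on chromosome 5 from 147561604 to 147726011 on the minus strand. Its level was 7.73, 10.1, 8.98, 9.70 and 8.63 RPKM in mice 7 to 11, with mouse 7 lowest. Kdr, which encodes the main signalling receptor for VEGF-A, had 2.39, 2.94, 2.69, 2.45 and 2.50 RPKM. Flt1 was above Kdr in 5 of 5 mice, by 3.47 times on average (log2 ratio 1.80 ± 0.11). This was the narrowest spread of the 9 ratios measured (the same exact permutation test, p = 0.0625, the smallest it can give, adjusted p = 0.0804 over 9 pairs, n = 5).

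The uptake carriers Slco1c1 and Mfsd2a followed different mice. Slco1c1 encodes a carrier of thyroxine, on chromosome 6 from 141524368 to 141570177 on the plus strand, and had 11.8, 12.6, 14.1, 15.1 and 10.2 RPKM in mice 7 to 11. Mouse 10 had the most Slco1c1 and mouse 11 the least. With the trends removed mouse 10 was still highest, but mouse 7 was lowest, at -0.36 log2 units from the mean, and mouse 11 was at 0.17 in place of -0.25. Mfsd2a encodes the carrier of lysophospholipids with docosahexaenoic acid, which also restrains vesicle transport across the endothelium, and lies on chromosome 4 from 122946850 to 122961188 on the minus strand. Its level was 5.86, 6.41, 9.84, 9.14 and 13.4 RPKM, with mice 7 and 8 lowest and mouse 11 highest. The dispersion of Mfsd2a was 3.95 times the trend (edgeR, adjusted p = 0.981). Slc2a1, the glucose transporter of the same barrier, had 24.3, 28.6, 36.0, 38.3 and 49.0 RPKM, lowest in mouse 7 and highest in mouse 11 as Mfsd2a was. The ratio of Mfsd2a to Slc2a1 was -2.0 ± 0.13 log2 units, although the log2 CPM of each gene alone had SDs of 0.52 and 0.42. Their GC contents are close, at 54.2% and 54.0%, and the SD of the ratio was also 0.13 once the GC and length trends of each library had been removed. A trend with GC nearly cancels in a ratio of genes so close in GC, so this SD does not test the part of GC.

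Promoters of Cldn5 and Mfsd2a, the 2 members highest above their mean in mouse 11, are shown as the 250 bases before the RefSeq start on GRCm38.p6, with CCAAT boxes (CCAAT or its complement ATTGG) and GC boxes (GGGCGG or CCGCCC) in capitals.
Cldn5, chr16:18776597-18776846, plus strand: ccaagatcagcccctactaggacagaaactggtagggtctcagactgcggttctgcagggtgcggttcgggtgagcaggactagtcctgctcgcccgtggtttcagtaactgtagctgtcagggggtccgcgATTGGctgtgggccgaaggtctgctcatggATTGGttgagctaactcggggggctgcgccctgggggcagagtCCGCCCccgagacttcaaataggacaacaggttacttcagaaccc
Mfsd2a, chr4:122961189-122961438, minus strand: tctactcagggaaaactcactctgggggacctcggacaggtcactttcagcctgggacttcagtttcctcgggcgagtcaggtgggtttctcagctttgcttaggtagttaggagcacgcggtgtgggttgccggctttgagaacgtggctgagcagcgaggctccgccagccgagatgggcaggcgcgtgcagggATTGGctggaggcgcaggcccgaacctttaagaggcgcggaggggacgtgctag
The Cldn5 stretch holds 2 CCAAT boxes, 1 GC box and 12 CpG pairs, and that of Mfsd2a 1 CCAAT box, no GC box and 17 CpG pairs, against a median of 6 CpG pairs over all 32851 promoters of the table. Promoters were listed for 8 of the 10 members. Abcg2 and Ocln had more than a single promoter each, and those of Ocln overlap, so the 11 promoters are not 11 genes. That of Abcb1a ends at base 8567090, far before the gene start at 8660077. A CCAAT box was present in 4 of the 11 promoters (4 members) and in 33.8% of all promoters. A GC box was present in 7 of 11 (5 members) and in 32.7%. The ETS core GGAAG, bound by endothelial factors such as ERG, was present in 7 of 11 and in 64.1% of all promoters, the TCF/LEF motif CTTTGA in 2 of 11 and in 13.8%. A TATA box (TATAAA) was present in 1 of 11 and in 12.4% of all promoters, and the SOX core ACAAT in 1 of 11 and in 27.7%. Both strands were counted for each motif. These are matches of letters and not measured sites.

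The efflux pumps Abcb1a and Abcg2 were lowest in mouse 11 and highest in mouse 7. Abcb1a encodes P-glycoprotein, on chromosome 5 from 8660077 to 8748575 on the plus strand, and had 7.23, 6.56, 4.51, 5.65 and 3.75 RPKM in mice 7 to 11. Abcg2 encodes the breast cancer resistance protein, on chromosome 6 from 58584523 to 58695676 on the plus strand, and had 2.62, 1.67, 1.56, 2.16 and 1.12 RPKM. Mouse 7 was 1.93 times mouse 11 for Abcb1a and 2.34 times mouse 11 for Abcg2. Neither was called variable (edgeR, adjusted p = 0.983 and 0.982). After removal of GC and length trends, the SD of log2 CPM of Abcg2 was 0.20 in place of 0.44, and that of Abcb1a 0.24 in place of 0.35. The pumps then no longer shared their highest and lowest mouse. Abcg2 was highest in mouse 10 (0.32 log2 units from its mean) and lowest in mouse 8 (-0.18). Abcb1a was still highest in mouse 7 (0.28), but it was lowest in mouse 9 (-0.31). Abcb1a is the member whose reads are uncertain: 18.6% of the 50-base windows of its longest coding transcript also occur in another gene, mostly Abcb1b, and 10.1% of its exon bases lie opposite exons of Gm42686. For the other 9 members no window of 50 bases was shared and no exon of another gene overlapped.

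Values in mouse 11 moved with GC content, in the members as in all genes. Over all genes averaging 50 counts or more, the deviation from the mean of the mice rose by 0.53 log2 units for each 10 percentage points of GC in mouse 11 and fell by 0.27 in mouse 7; the slopes of the other 3 mice lay between -0.13 and -0.0031. In mouse 11 the log2 deviation was 1.14 for Cldn5, 0.71 for Mfsd2a, 0.22 for Cdh5, 0.00 for Flt1, -0.20 for Pecam1, -0.29 for Tjp1, -0.46 for Abcb1a, -0.25 for Slco1c1, -0.13 for Ocln and -0.58 for Abcg2, in falling order of GC. Spearman's rho between deviation and GC was 0.84 over the 10 members and 0.70 over all genes, in a single library whose points share its depth and preparation. In mouse 7 the relation was weak over the members, with a rho of -0.22, where all genes gave -0.41. Mouse 10 gave a rho of -0.82 over the 10 members where all genes gave -0.03. With the trends of each library removed, the deviation in mouse 11 was 0.51 for Cldn5 and 0.45 for Mfsd2a, still above 0, and -0.03 for Abcg2 and -0.13 for Abcb1a. Other members moved away from 0 or changed sign in mouse 11: Ocln was at 0.31, Slco1c1 at 0.17 and Flt1 at 0.15. Across the 5 mice the SD fell for 7 members and rose for Ocln, for Slco1c1 (0.24 in place of 0.20) and for Flt1 (0.19 in place of 0.15). The part of GC content in the differences between mice was not tested beyond this.

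**Figure D2:**
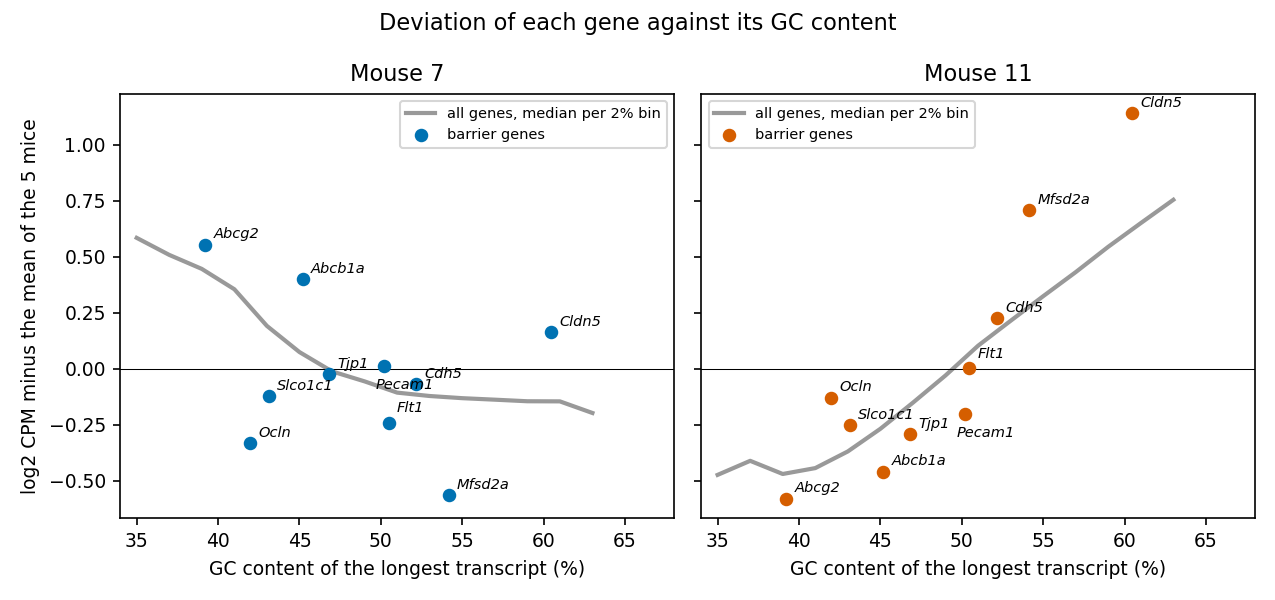
Log2 CPM of each barrier gene minus its mean over the 5 mice (points) against the GC content of its longest transcript, in mouse 7 and mouse 11, with the median of all genes averaging 50 counts or more, per 2% of GC (line). In mouse 11 the points climb with the line, with Cldn5 at 1.14 and Abcg2 at -0.58.

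The spread of the members between mice was read against that of all genes. None of the 10 was called variable in edgeR at an adjusted p of 0.05, and 0 of all 16318 genes were (0.0%). In simulated counts this test recovered 1 of 100 genes raised 4 times in 1 mouse, and the widest range of a member was 3.29 times (Cldn5). The 0 calls therefore do not show a narrow spread. At an unadjusted p of 0.05, 1 member (Cldn5) and 4.82% of all genes passed, and the dispersion outlier mark of DESeq2 fell on 0 members and on 49 genes (0.3%). The median SD of log2 CPM was 0.22 for the members and 0.30 for all genes tested, or 0.22 and 0.23 after removal of GC and length trends. These SDs were not matched for counts: the genes tested reach down to a mean of 10 counts, and the members to 225.6. Dispersion lay above its trend for 4 members (Cldn5, Mfsd2a, Abcg2 and Abcb1a) and below it for 6. In log2 CPM, 3 members were highest in mouse 11 and 5 were lowest there, where 37.6% of all genes were highest and 32.7% lowest. Mouse 7 was highest for 2 and lowest for 3 members, against 25.0% and 25.4% of all genes. After removal of the trends, mouse 11 was highest for 5 members and lowest for 1, where 35.3% of all genes were highest and 21.7% lowest. Mouse 7 was then highest for 1 and lowest for 5, against 23.4% and 29.8%. The CPM of the 10 members summed to 498, 550, 506, 556 and 467 in mice 7 to 11, a mean of 515 ± 37.5, of which Tjp1 and Flt1 held the larger part. This sum was lowest in mouse 11 with counts as deposited and lowest in mouse 7 (466) with the trends removed.

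**Figure D3:**
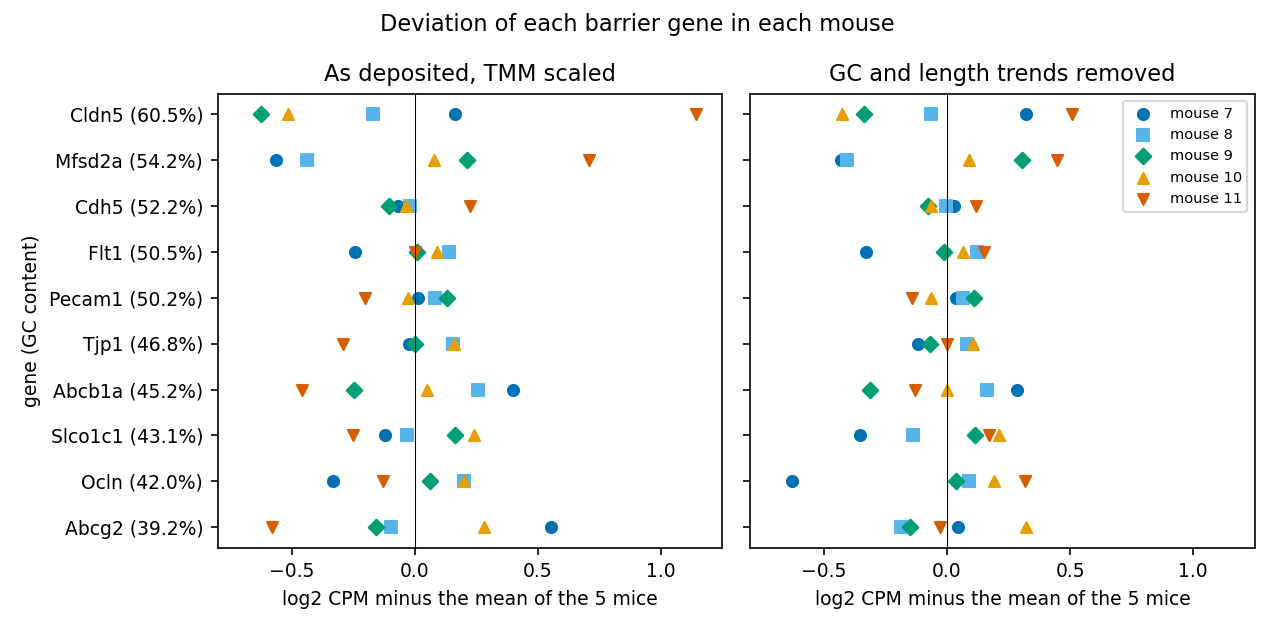
Log2 CPM of each barrier gene in each mouse minus the mean of the 5 mice, with genes in falling order of GC content, from the counts scaled by TMM (left) and after removal of those trends with GC and length (right). On the left Cldn5 reaches 1.14 in mouse 11, and on the right 0.51.

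Further ratios set each member beside a relative, tested as for Flt1 and Kdr over 9 pairs, of which 8 are described. Abcb1a was 14.1 times Abcb1b, the second mouse gene of P-glycoprotein, which had 0.390 ± 0.0839 RPKM, with the reads shared between both as given above. Ocln was 5.70 times Marveld2, which encodes the related tricellulin, at 0.578 ± 0.0859 RPKM. Slco1c1 was 2.77 times Slco1a4, an organic anion carrier of the same family with 8.42, 5.40, 4.57, 3.64 and 2.65 RPKM in mice 7 to 11, whose shared sequence with related genes was not checked. Each of these was higher in 5 of 5 mice (p = 0.0625 and adjusted p = 0.0804 by the exact permutation test). Abcg2 was below Abcc4, an efflux pump for organic anions with 5.10 ± 0.707 RPKM, in 5 of 5 mice (log2 ratio -1.53 ± 0.65), with the same p. At the gene lengths used, Pecam1 and Cdh5 did not differ beyond their spread (log2 ratio -0.05 ± 0.25, exact permutation p = 0.875). Nor did Cldn5 and Cldn12 (-0.09 ± 0.78, exact permutation p = 0.875). Cldn12, a claudin of many cell types, had 15.0 ± 1.43 RPKM. Cldn3 had 1, 2, 0, 2 and 4 counts, at or near the 3 counts that a count of 0 allows, so no ratio to Cldn5 is given.

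**Figure D4:**
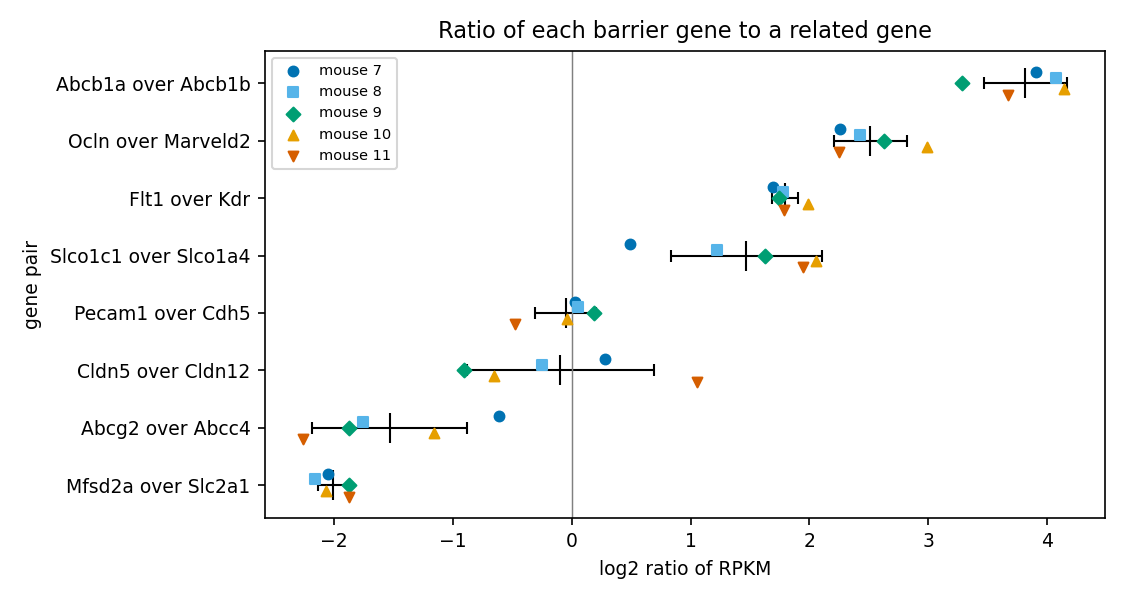
Log2 ratio of RPKM of barrier genes to a related gene in 8 pairs, with a symbol for each mouse and a bar for the mean ± SD (n = 5); 0 means equal levels. Mfsd2a over Slc2a1 and Flt1 over Kdr have the narrowest spread, with SDs of 0.13 and 0.11, and Cldn5 over Cldn12 spans 0 with an SD of 0.78.

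Other genes of the barrier were measured as lists. Of 20 other junction genes 19 could be tested and 0 were called in edgeR, with 0 at an unadjusted p of 0.05. The highest was Ctnnb1, encoding beta-catenin, at 104 ± 14.5 RPKM, and the median SD of the list was 0.24 log2 units. Of 20 other transporters 18 were tested and 0 called, with Slco1a4 and the transferrin receptor gene Tfrc at an unadjusted p of 0.0282 and 0.00844 in edgeR (adjusted over all genes, neither passed). For Tfrc the level was 20.6 RPKM in mouse 7, and mice 8 to 11 lay between 6.15 and 10.3. Slc3a2, the heavy chain of amino acid carriers, was highest at 35.4 ± 5.95 RPKM, and Slco1a5 lowest, with 0 to 4 counts. All 15 genes of VEGF and TIE signalling were tested, from Angpt2 at 0.634 ± 0.131 to Vegfb at 23.8 ± 7.28 RPKM. All 14 genes of the Wnt pathway that maintains the barrier were tested, from Lef1 at 1.31 ± 0.289 to Tspan12, a co-receptor of Frizzled-4, at 7.85 ± 0.231 RPKM. In both lists 0 genes were called, and 1 (Angpt1) had an unadjusted p under 0.05.

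Markers of endothelial identity were all detected, and many were highest in mouse 11. Of 26 genes 18 were highest there, where 37.6% of all genes were, and the mean deviation of the list in mouse 11 was 0.41, or 0.29 after removal of GC and length trends. The median GC content of this list was 53.3%, against 48.5% for the members and 49.4% for all genes. Bsg, which encodes basigin and is also made by many other cells, was highest at 154 ± 21.6 RPKM and the transcription factor gene Sox7 lowest at 0.644 ± 0.277 RPKM. Sox18, a transcription factor gene of vessels, had 3.02, 2.29, 2.52, 2.00 and 7.78 RPKM in mice 7 to 11 and von Willebrand factor (Vwf) 2.87, 3.91, 3.59, 4.04 and 6.84 RPKM. Both had an unadjusted p under 0.05 in edgeR (0.0227 and 0.0396), and 0 of 26 were called after adjustment. Among genes of vessel activation and leak, 5 of 8 were tested and 0 called. Plvap, the diaphragm protein of fenestrated vessels, had 2.62, 2.45, 2.82, 3.06 and 6.23 RPKM. Ackr1 was the highest of these at 42.5 ± 4.58 RPKM, and Selp, with 0 to 10 counts, was the lowest.

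Markers of other cells in the tissue were summed beside the members. The mean log2 deviations of the members in mice 7 to 11 were -0.02, 0.01, -0.06, 0.05 and 0.02, an average over members that went both ways. They were -0.12, -0.03, -0.04, 0.04 and 0.14 with the trends removed. Before removal, those of 10 pericyte genes were 0.11, -0.06, -0.22, -0.10 and 0.27, with Vtn highest at 38.7 ± 5.02 RPKM and Higd1b lowest at 1.43 ± 0.439. Choroid plexus genes, which include cells that also make Tjp1 and Ocln, had 0.02, -0.18, 0.01, -0.07 and 0.22, and their CPM summed to between 487 and 742, lowest in mouse 8 and highest in mouse 11. Summed CPM of the other lists lay between 63.2 and 77.2 for smooth muscle, 139 and 193 for meningeal fibroblasts, 441 and 523 for microglia, 3892 and 5737 for astrocyte endfeet, 4482 and 6166 for oligodendrocytes and 5685 and 7528 for neurons. As a fold, the widest range was that of the blood cell and platelet list, 2.97 times, between 61.3 in mouse 9 and 182 in mouse 11, with 4 haemoglobin genes at an unadjusted p under 0.05 in edgeR. Among the members, only Cldn5 and Cdh5 had their extremes in the same mice as this list. In log2 CPM, mouse 11 was the top mouse for 37.6% of all genes, and the share with both extremes was not counted. With the trends removed, the mean log2 deviation of the blood list was largest in mouse 8 (0.28, against 0.24 in mouse 11). Mouse 9 stayed at the bottom for that list (-0.64), while Cldn5 was then lowest in mouse 10. A link of Cldn5 or Cdh5 to blood content was not tested. The highest and lowest genes of these lists were Acta2 (12.7 ± 1.94 RPKM) and Cnn1 (0.349 ± 0.140) for smooth muscle, and Igf2 (15.3 ± 2.57) and Col3a1 (0.409 ± 0.0701) for meningeal fibroblasts. For the choroid plexus they were the transthyretin gene Ttr (404 ± 70.5 RPKM) and Prlr (0.661 ± 0.329). Microglia genes ran from Siglech (1.34 ± 0.406) to Ctss (69.1 ± 6.68 RPKM), and the glutamate transporter gene Slc1a2 was the highest of the astrocyte endfeet list (305 ± 55.7 RPKM). Oligodendrocyte genes ran from Opalin (9.03 ± 2.18) to Mbp (346 ± 73.2 RPKM), and neuronal genes from Elavl4 (17.0 ± 0.584) to Snap25 (298 ± 50.3 RPKM). Among blood cell genes Hbb-bs was highest (62.0 ± 19.5 RPKM). No gene of these lists was at 0 in all 5 libraries, and 0 were called variable in edgeR. The part of other cell types in the members' values was not tested.

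**Figure D5:**
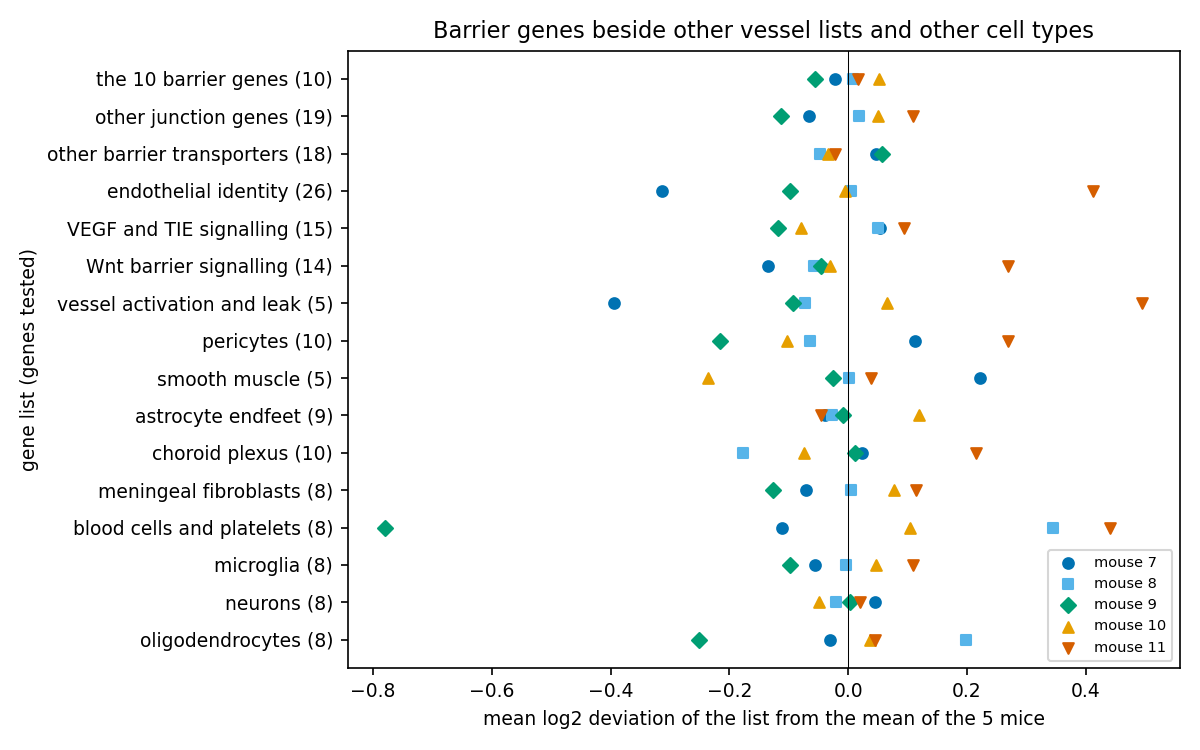
Mean log2 deviation of each gene list from the mean of the 5 mice, with a symbol for each mouse and the number of genes tested in brackets. No trends are removed here. The mean of the 10 barrier genes stays between -0.06 and 0.05, over members that range from -0.58 to 1.14 in mouse 11, while endothelial identity genes reach 0.41 in mouse 11 and blood cell genes -0.78 in mouse 9.

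Genes whose pattern over the mice was most like the members' mean were Bach2, Cables2, Ube2d-ps, Gpatch2l and Lhpp, with root mean square differences of 0.014 to 0.026 log2 units over 5 mice, among 11184 genes searched. The members' mean itself stayed between -0.06 and 0.05 log2 units, so these genes also varied little. Within the members, Ocln and Flt1 were most alike, with a root mean square difference of 0.093 log2 units, followed by Tjp1 and Pecam1 at 0.115. All these likenesses were measured with GC and length trends left in. With the trends removed, mouse 7 was at -0.63 for Ocln and -0.33 for Flt1, and likeness was not measured again.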

How the data were processed

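Whole-number counts per gene were deposited by the authors for 47729 Ensembl genes in 5 libraries. Tools named in the submitters' processing notes are STAR 2.4.1d, featureCounts 1.4.6-p4 and CASAVA 1.7, on GRCm38, with no settings. The annotation release and strand setting are not given in the sources used here. The RPKM values deposited by the authors were divided by the totals of the 5 libraries in turn down the table, so 20% of them use their own library's total; RPKM were therefore recomputed with each library's own total and the gene length that the deposited values imply. Of all genes 47224 had a symbol in GENCODE M21.

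Variability was tested with edgeR 4.0.16: an intercept was fitted by quasi-likelihood with TMM scaling to 16318 genes averaging 10 counts or more, and each dispersion was set against an F distribution fitted robustly by limma 3.58.1 along expression, with Benjamini-Hochberg adjustment over all of these genes. Log2 CPM used a prior count of 1. Trends with GC and length were fitted per library with mgcv 1.9.3 to genes averaging 50 counts or more. DESeq2 1.42.0 gave size factors and a dispersion outlier mark. The variability test was tried on simulated counts, with genes at the members' mean counts raised in 1 mouse. It recovered 1 of 100 genes raised 4 times and 99 of 100 raised 16 times, with 8 false calls. Libraries held 15392006 to 18723390 counts, and counting errors at the members' mean counts were 1.85% to 6.66%; they cover counting error only. Members, lists, pairs and tests were chosen with earlier results of these data known. Genes were named as follows: the members, their pair partners, the highest and lowest gene of each list, any list gene called variable (there were 0), and the 5 genes most like the members' mean. Genes outside this rule, such as Sox18, Vwf, Plvap, Tfrc, Angpt1, Pf4, Itga2b and Ptprc, were chosen after their values were seen. A few genes that the rule names, and results that need them, are not reported here. Exon overlap and shared sequence were not checked for genes outside the members. Alternatives were other scaling, other filters, trend removal, deposited RPKM, other lengths and leaving out each mouse.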

Additional observations from a re-analysis of the deposited data

Results flagged for a closer look

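The genes named by rule, list genes with an unadjusted p under 0.05 and 6 genes chosen after their values were seen make 58 genes. Among these, 16 lists and 9 ratios, 7 had 1 mouse apart from the other 4, with a gap to the nearest value above 0.71 of the range, and 6 of them are given here. Chance gives about 1 in 20 groups, and 12% of all 16318 tested genes met the criterion in CPM; 0 of the 10 members did. Of all 179 list genes outside the members, 21 did (11.7%). Mouse 11 stood apart high for Vegfb (36.7 RPKM), Sox18 (7.78 RPKM) and Plvap (6.23 RPKM), whose GC contents are 62.6%, 60.9% and 60.6%. Their log2 deviations in mouse 11 were -0.05, 0.74 and 0.39 once the GC and length trends had been removed. Mouse 11 stood apart low for the summed CPM of the other junction genes (1113), of which Ctnnb1 held 406 in mouse 11 and 526 to 584 in the others. The mean log2 deviation of that list in mouse 11 was 0.11, its highest of the 5 mice. Mouse 7 stood apart high for Angpt1 (2.98 RPKM), a ligand of the TIE2 receptor, and for the smooth muscle gene Cnn1 (0.597 RPKM, from 22 counts against 10 to 14).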

How the results depend on the processing

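No paired analysis was possible because there is a single group. With no filter on low counts edgeR called 230 of 28335 genes and 1 member, Cldn5 (adjusted p = 0.0418); the DESeq2 mark fell on 49 genes. For Cldn5 the adjusted p lay between 0.882 and 0.984 under the other alternatives, and the count of calls was 0 with either other scaling, among genes averaging 50 counts or more, with trends removed and without each mouse in turn. The number of neighbours with 1 order in every mouse, 3 with all mice, was 3 to 5 when a mouse was left out (5 without mouse 11) and 2 with deposited RPKM. The pair that lost its order with deposited RPKM was Ocln over Abcg2 (exact permutation p = 0.125). Leaving out a mouse took the log2 ratio of Cldn5 over Slco1c1 to between -0.20 (without mouse 11) and 0.34, Flt1 over Mfsd2a to between -0.070 (without mouse 8; -0.0072 without mouse 7) and 0.25, Cdh5 over Pecam1 to between -0.057 (without mouse 11) and 0.11 (Pecam1 over Cdh5 between -0.11 and 0.057), and Cldn5 over Cldn12 to between -0.38 and 0.11 (without mouse 9; 0.045 without mouse 10). With M21 exon lengths Cdh5 over Pecam1 was -0.026 and Pecam1 over Cdh5 0.026. The cause was not tested. The other pair ratios kept their direction under each alternative tried, with the trend removal for ratios chosen after seeing the data. For 2 alternatives this was fixed in advance. Trends were centred over the 5 mice for each gene, so their removal cannot change a mean log2 ratio. Deposited RPKM use each of the 5 library totals once per gene, so the mean could change only by rounding. Mean RPKM of Cldn5 was 11.9 without mouse 11. Each member's mean moved by less than 1 SD under each alternative. Leaving out 1 of 5 mice cannot move a mean by 1 SD, so only deposited RPKM and M21 exon lengths could have done so. With 4 mice the sign-flip test cannot go below 0.125. With 1 group of 5, a p that misses the threshold does not show that the mice were alike.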
